A study of Mus musculus with 9 samples.

Results

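The genes of the ventricular sarcomeric myosins were followed across 9 mouse hearts, with 3 hearts in each of 3 groups. They comprise 3 heavy chains (Myh6, Myh7 and Myh7b), 2 light chains (Myl2 and Myl3) and the kinase Mylk3, taken by gene symbol. Each had 1 probe set, so the 6 genes are 6 of the 20239 named genes on the arrays, and all 6 passed the filter on low values that left 12597 genes for testing.

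Each group was made of male C57BL/6 mice. The TAC HDAC4-NT group received an adeno-associated virus carrying amino acids 1 to 201 of histone deacetylase 4 (HDAC4) and then transverse aortic constriction (TAC), which narrows the aorta and makes the left ventricle pump against a higher pressure. The TAC luciferase group received a virus carrying luciferase and the same operation. The sham group received the luciferase virus and a sham operation. Virus was given at 8 weeks of age, surgery followed 4 weeks later, and whole hearts were collected 4 weeks after surgery. All hearts therefore carried a virus, and there was no sham group with HDAC4-NT. A myosin light chain promoter drove each of the virus genes, and the sources used here do not say from which light chain gene it came. RNA came from the whole heart, so cardiomyocytes, other cells and both kinds of chamber are measured together, and fewer cells of a type cannot be told apart from less RNA per cell.

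Myosin is the motor of the thick filament, built of heavy chains that split ATP and pull on actin, each carrying an essential and a regulatory light chain at its neck. In the adult mouse ventricle the fast alpha heavy chain (Myh6) is the main form, while the slow beta heavy chain (Myh7) is the fetal form, and it returns under pressure load. Myh7b is an ancient relative of Myh7. Myl3 encodes the ventricular essential light chain and Myl2 the ventricular regulatory light chain, which Mylk3, the cardiac myosin light chain kinase, phosphorylates.

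Each heavy chain gene also carries a microRNA in an intron, known as a myomiR. The mature sequences are shown because these RNAs belong to the same transcription units as the heavy chains, with the seed (bases 2 to 8) in capitals, from RefSeq on GRCm38.p6. The Myh6 product, miR-208a-3p, lies at chr14:54949072-54949093 on the minus strand, the Myh7 product, miR-208b-3p, at chr14:54975710-54975731 on the minus strand, and the Myh7b product, miR-499-5p, at chr2:155622893-155622913 on the plus strand.
mmu-miR-208a-3p: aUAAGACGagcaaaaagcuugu
mmu-miR-208b-3p: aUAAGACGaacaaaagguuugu
mmu-miR-499-5p: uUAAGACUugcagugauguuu
The products of Myh6 and Myh7 shared the seed UAAGACG and 19 of their 22 bases. The seed of miR-499-5p, UAAGACU, has another last base.

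Myh6 and Myh7 are neighbours on the same strand of chromosome 14, and their promoters are shown because the pair moved in opposite directions in TAC luciferase hearts. Each sequence is the 250 bases before the first RefSeq start on GRCm38.p6, read 5′ to 3′ on the gene's strand, with matches to GGAATG or its reverse complement CATTCC in capitals. GGAATG is the core of the MCAT element, which TEAD factors bind in muscle genes. The Myh7 window is chr14:54994627-54994876 (minus strand), the Myh6 window chr14:54966608-54966857 (minus strand) and the Myh7b window chr2:155610993-155611242 (plus strand).
Myh7: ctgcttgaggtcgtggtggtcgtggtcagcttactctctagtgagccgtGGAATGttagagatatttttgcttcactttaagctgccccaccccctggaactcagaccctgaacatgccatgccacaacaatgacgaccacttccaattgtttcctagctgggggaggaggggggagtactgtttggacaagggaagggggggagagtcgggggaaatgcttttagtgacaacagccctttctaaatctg
Myh6: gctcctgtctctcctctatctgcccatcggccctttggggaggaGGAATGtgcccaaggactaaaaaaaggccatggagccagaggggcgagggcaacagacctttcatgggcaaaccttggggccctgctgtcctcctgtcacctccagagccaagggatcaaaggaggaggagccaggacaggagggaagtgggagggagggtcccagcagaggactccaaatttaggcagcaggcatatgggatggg
Myh7b: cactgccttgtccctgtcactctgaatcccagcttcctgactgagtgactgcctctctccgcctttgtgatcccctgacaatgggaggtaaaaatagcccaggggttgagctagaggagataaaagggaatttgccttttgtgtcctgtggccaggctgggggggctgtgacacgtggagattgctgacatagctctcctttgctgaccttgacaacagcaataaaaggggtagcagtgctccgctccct
The match began 201 bases before the Myh7 start and 206 bases before the Myh6 start, and the Myh7b window held none. Myh7 has 2 RefSeq starts, and the window before the other held none. On either strand, 12.6% of the 32851 RefSeq promoters searched held GGAATG, so a match is common and is only a description of the letters. A search for AGGTCA, the core element bound by thyroid hormone and retinoid receptors, found no match in these windows of Myh7 and Myh6 and a match 46 bases before the Myh7b start, against 14% of all promoters. The MEF2 site, written as CTA, any 4 bases and TAG, had no match in these windows, and 3.2% of all promoters held it.

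All values are log2 expression estimates made with RMA, an array summary that also forces every array to the same distribution of values, here 5.03 to 14.11. Levels are compared between hearts for the same gene, not between genes. Along the main axis of variation, which held 55.3% of the variance, TAC and sham hearts separated. Within the TAC luciferase group, heart 1 correlated more closely with the TAC HDAC4-NT hearts (r = 0.991 to 0.992 over genes) than with hearts 2 and 3 of its own group (r = 0.986 to 0.987), so calls were repeated without hearts 2 and 3. Of the genes named below, Myh6, Myl3, Mir208a, Myl6, Myl12a, Myl12b, Myh8, Mybpc2, Mybpc3, Ppp1r14c, Dapk3, Ppp1r12a, Egr1, Neb, Thra, Thrb and Rxrb then lost their call in TAC luciferase against sham (adjusted p = 0.0506 to 0.336), with 1 TAC luciferase heart left that is assumed to vary like the others. The first number of the sample codes differed between the groups (3 and 4 in TAC HDAC4-NT, 8 and 9 in TAC luciferase, 12 in sham). Anything it marks cannot be told apart from the groups. It also varied within them. In TAC luciferase it was 8 for heart 1 and 9 for hearts 2 and 3, the same split as above. In TAC HDAC4-NT it was 3 for heart 1 and 4 for hearts 2 and 3. What the number marks is not given. Of the marker lists, the mean of 16 cardiomyocyte genes hardly moved. It was 12.27 to 12.32 in TAC HDAC4-NT hearts, 12.25 to 12.32 in TAC luciferase hearts and 12.25 to 12.26 in sham hearts. These genes read high in a shared distribution, with Actc1 at its top of 14.11 in all TAC hearts. A steady mean therefore does not show steady cardiomyocyte content. The mean of 10 fibroblast genes was 9.12 to 9.19, 8.94 to 9.08 and 7.85 to 7.94 in the same order of groups. Of the 10, 7 passed the test as higher in each TAC group against sham. Over all genes tested, 11.2% passed as higher in TAC luciferase hearts and 10.5% in TAC HDAC4-NT hearts.

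Myh7 was the member that changed most. Myh7 read 11.53, 11.01 and 11.71 in TAC HDAC4-NT hearts, 11.43, 11.70 and 11.40 in TAC luciferase hearts, and 8.93, 8.96 and 9.39 in sham hearts. All 6 TAC hearts lay above all 3 sham hearts, and the TAC groups overlapped each other. Against sham, Myh7 was 5.33-fold higher in TAC luciferase hearts (log2 difference 2.42, SE 0.18, 95% confidence interval 2.00 to 2.83, limma adjusted p = 4.06e-05). It was 5.0-fold higher in TAC HDAC4-NT hearts (log2 difference 2.32, SE 0.18, interval 1.91 to 2.74, adjusted p = 5.43e-05). Both comparisons use the same 3 sham hearts. Ordered by brightness, the Myh7 probe set stood at rank 135 to 282 of 21225 in TAC HDAC4-NT hearts and 136 to 191 in TAC luciferase hearts, against 1131 to 1572 in sham hearts.

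**Figure D1:**
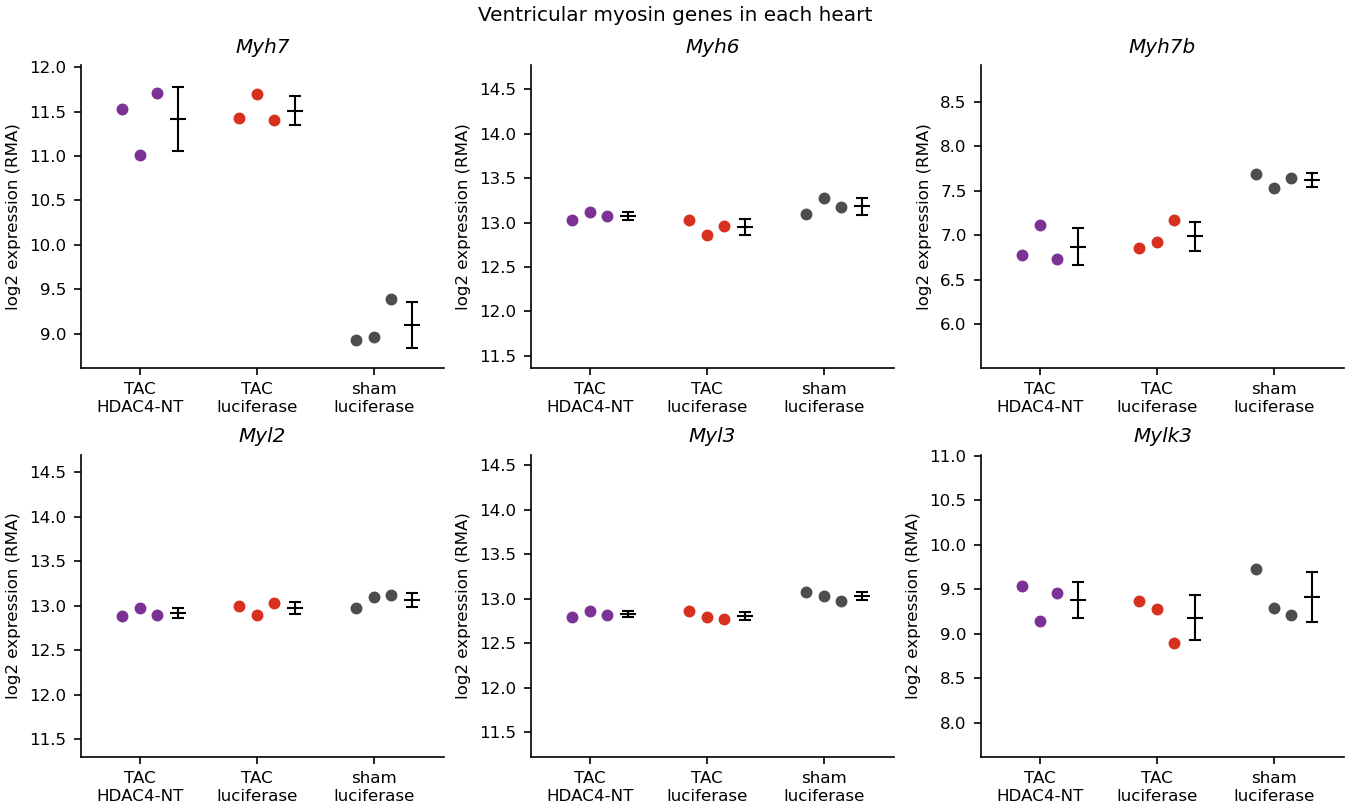
Log2 expression (RMA) of the 6 genes in each heart, with TAC HDAC4-NT (purple), TAC luciferase (red) and sham (grey) from left to right. Points are hearts 1 to 3, and the bars give the mean and SD of 3 hearts; all panels span the same number of log2 units, and Myh7 separates the TAC hearts from the sham hearts by more than any other member.

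Myh6 moved much less and in the other direction. Its log2 values were 13.03, 13.12 and 13.08 in TAC HDAC4-NT hearts, 13.03, 12.86 and 12.96 in TAC luciferase hearts, and 13.09, 13.28 and 13.17 in sham hearts. The TAC luciferase hearts all lay below the sham hearts, while the TAC HDAC4-NT hearts overlapped with them. Myh6 was 1.17-fold lower in TAC luciferase hearts than in sham hearts (log2 difference -0.23, SE 0.06, interval -0.37 to -0.09, limma adjusted p = 0.0271). In TAC HDAC4-NT hearts the difference from sham did not pass the test (-0.10, interval -0.25 to 0.04, adjusted p = 0.296). The TAC luciferase call did not survive without TAC luciferase heart 2 (adjusted p = 0.0950) or heart 3 (0.0611), without sham heart 2 (0.0792) or heart 3 (0.0593), or without TAC luciferase hearts 2 and 3 together (log2 difference -0.15, adjusted p = 0.312). It was also lost under cyclic loess scaling (adjusted p = 0.0961) and in a fit of those 2 groups alone (0.0648).

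Among 21225 probe sets Myh6 ranked between 13 and 31 on every array, and the same held for Myl2 (18 to 30) and Myl3 (20 to 34). Since all arrays share the same sorted values, a probe set at rank 13 reads 13.28 and a probe set at rank 34 reads 12.77 whatever the heart, which leaves these 3 genes little room to rise and any room to fall. The top value lay 0.83 log2 units above the highest Myh6 value, 0.99 above that of Myl2 and 1.03 above that of Myl3. The shared values bound a rise of Myh6 and Myl3 and do not bound a fall. A probe set also reads lower when others pass it in rank. Myh6 stood at rank 13 to 19 in sham hearts and 22 to 31 in TAC luciferase hearts. Myl3 stood at 20 to 25 in sham hearts, 31 to 34 in TAC luciferase hearts and 31 to 33 in TAC HDAC4-NT hearts. The part of such passing in their falls was not tested. Whether readings this bright understate a change was not tested.

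The balance of the heavy chains was taken as Myh7 minus Myh6 in each heart. Its level depends on the 2 probe sets, so only its movement between hearts is read. The difference was -1.50, -2.11 and -1.37 in TAC HDAC4-NT hearts, -1.60, -1.16 and -1.56 in TAC luciferase hearts, and -4.16, -4.31 and -3.78 in sham hearts. No TAC heart overlapped with a sham heart. The mean was -1.66 ± 0.39 in TAC HDAC4-NT hearts, -1.44 ± 0.25 in TAC luciferase hearts and -4.09 ± 0.27 in sham hearts (SD, n = 3 each).

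Relative to sham, the balance moved toward Myh7 by 2.65 log2 units in TAC luciferase hearts, a 6.26-fold change of the ratio, and by 2.43 log2 units in TAC HDAC4-NT hearts, a 5.38-fold change. For each, an exact two-sided permutation test gave p = 0.1, the smallest value that 3 against 3 hearts allow (adjusted p = 0.133 over 4 comparisons). All 6 TAC hearts against the 3 sham hearts gave a difference of 2.54 (5.80-fold, exact permutation p = 0.0238, again the smallest possible, adjusted p = 0.0952). As arithmetic on these 2 probe sets, Myh7 made up 91.3% of the shift in TAC luciferase hearts and 95.7% in TAC HDAC4-NT hearts. No interval was computed for these shares, and Myh6 read near the top of every array. TAC HDAC4-NT hearts differed from TAC luciferase hearts by -0.22 (exact permutation p = 0.6, adjusted p = 0.6). TAC HDAC4-NT heart 2 had the lowest Myh7 and the highest Myh6 of the 6 TAC hearts, and without it the difference between the TAC groups was 0.0057.

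**Figure D2:**
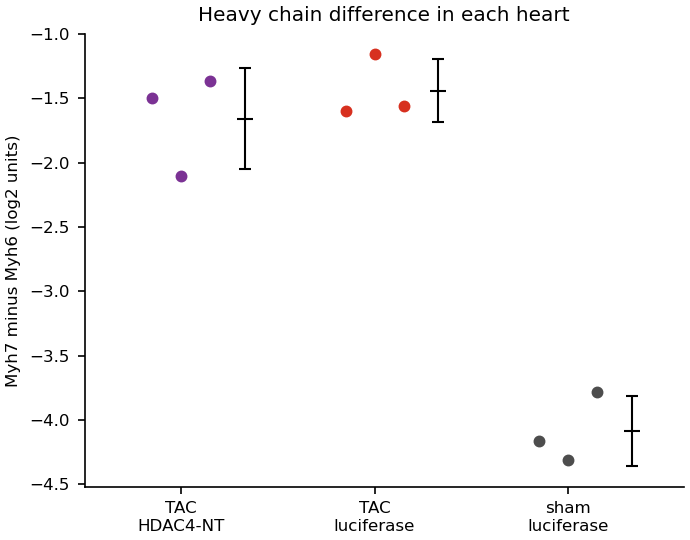
Myh7 minus Myh6 in log2 units in each heart, with TAC HDAC4-NT, TAC luciferase and sham from left to right; points are hearts 1 to 3 and bars give the mean and SD. The 6 TAC hearts lie between -2.11 and -1.16, above the sham hearts at -4.31 to -3.78.

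2 further transcripts of this gene pair could be read. Mhrt is a long noncoding RNA that overlaps Myh7 in the RefSeq gene table, is made antisense to it in the mouse, and was singled out here after its values were seen. Mhrt read 9.48, 9.66 and 9.44 in TAC HDAC4-NT hearts, 9.48, 9.27 and 9.20 in TAC luciferase hearts, and 10.75, 10.25 and 10.42 in sham hearts. Every TAC heart was below every sham heart. Mhrt was 2.22-fold lower in TAC luciferase hearts than in sham (log2 difference -1.15, SE 0.13, limma adjusted p = 0.00026) and 1.92-fold lower in TAC HDAC4-NT hearts (-0.94, SE 0.13, adjusted p = 0.000806). The labels describe biotin-labelled cRNA and do not give the strand or place of the probes, so signal shared between Mhrt and Myh7 was not tested. The log2 differences had opposite signs.

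The other is Mir208a, the gene of miR-208a in the Myh6 intron. The assay labels long RNA, so its probe set reads RNA of the locus and not the mature microRNA printed above. Mir208a gave dim readings of 5.69, 5.77 and 5.75 in TAC HDAC4-NT hearts, 5.64, 5.56 and 5.67 in TAC luciferase hearts, and 6.18, 5.81 and 6.38 in sham hearts. TAC luciferase hearts 1 and 2 read below the filter level, and whether readings this dim follow Mir208a RNA was not tested. All TAC hearts were below all sham hearts. It was 1.41-fold lower in TAC luciferase hearts (log2 difference -0.50, adjusted p = 0.0137) and 1.31-fold lower in TAC HDAC4-NT hearts (-0.39, adjusted p = 0.0431). With an array left out, the second call held only without sham heart 2 or TAC luciferase heart 1, and adjusted p reached 0.127 otherwise. Mir499, at 5.34 to 5.56 on all arrays, did not pass the filter, and Mir208b was not analysed here.

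**Figure D3:**
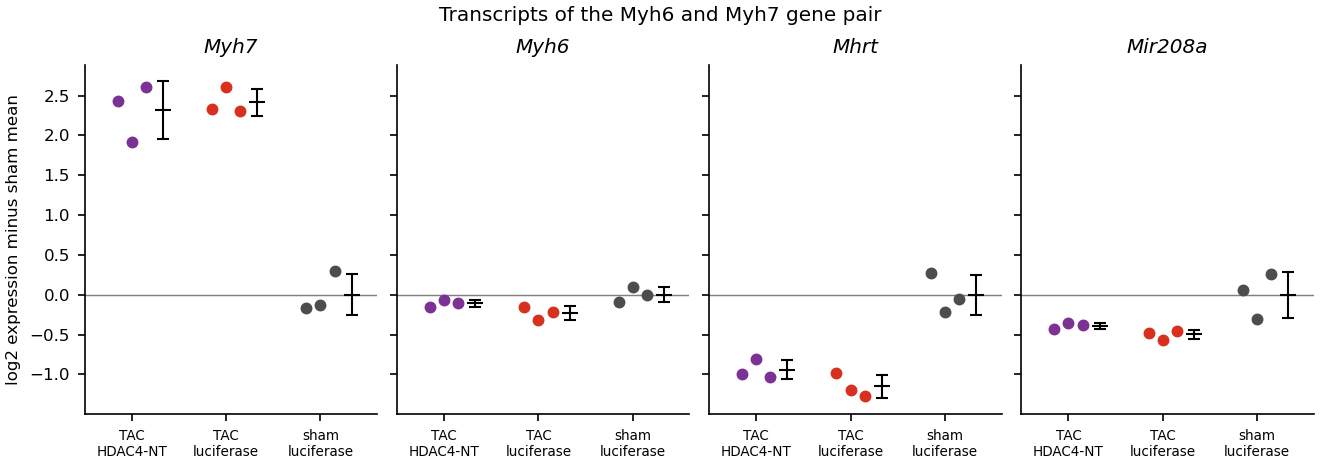
Transcripts of the Myh6 and Myh7 gene pair in each heart, as log2 expression minus the sham mean, with TAC HDAC4-NT, TAC luciferase and sham from left to right in each panel; bars give the mean and SD of 3 hearts. Myh7 lies far above the sham mean in all TAC hearts, Mhrt and Mir208a lie below all sham hearts, and Myh6 stays closest to the sham mean.

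Myh7b went the opposite way to Myh7. Its log2 values were 6.78, 7.11 and 6.73 in TAC HDAC4-NT hearts, 6.86, 6.93 and 7.17 in TAC luciferase hearts, and 7.69, 7.53 and 7.64 in sham hearts. All TAC hearts were below all sham hearts. Myh7b was 1.55-fold lower in TAC luciferase hearts (log2 difference -0.64, SE 0.11, interval -0.89 to -0.39, limma adjusted p = 0.00315) and 1.68-fold lower in TAC HDAC4-NT hearts (-0.75, SE 0.11, interval -1.0 to -0.50, adjusted p = 0.00144), both against sham. The calls of Myh7 and of Myh7b held under all alternatives run.

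Of the light chains, Myl3 fell by a small amount and Myl2 did not pass the test. Myl3 read 12.79, 12.86 and 12.82 in TAC HDAC4-NT hearts, 12.86, 12.79 and 12.77 in TAC luciferase hearts, and 13.08, 13.03 and 12.98 in sham hearts. Neither TAC group overlapped with sham. It was 1.17-fold lower in TAC luciferase hearts (log2 difference -0.22, SE 0.05, adjusted p = 0.00925) and 1.15-fold lower in TAC HDAC4-NT hearts (-0.21, SE 0.05, adjusted p = 0.0141). The TAC luciferase call did not survive without TAC luciferase hearts 2 and 3 together (-0.17, adjusted p = 0.169), and the TAC HDAC4-NT call was lost without TAC HDAC4-NT heart 1 (adjusted p = 0.0620) or heart 3 (0.0501).

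Myl2 read 12.88, 12.98 and 12.90 in TAC HDAC4-NT hearts, 13.00, 12.90 and 13.03 in TAC luciferase hearts, and 12.98, 13.09 and 13.12 in sham hearts. Each group overlapped with the others. The log2 difference from sham was -0.09 in TAC luciferase hearts (adjusted p = 0.325) and -0.14 in TAC HDAC4-NT hearts (interval -0.28 to -0.01, adjusted p = 0.114).

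Mylk3, the kinase that acts on the Myl2 product, varied as much within groups as between them. Its log2 values were 9.53, 9.15 and 9.45 in TAC HDAC4-NT hearts, 9.37, 9.28 and 8.90 in TAC luciferase hearts, and 9.73, 9.29 and 9.21 in sham hearts. All groups overlapped. The log2 difference from sham was -0.23 in TAC luciferase hearts (interval -0.61 to 0.15, adjusted p = 0.372) and -0.03 in TAC HDAC4-NT hearts (adjusted p = 0.920).

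**Figure D4:**
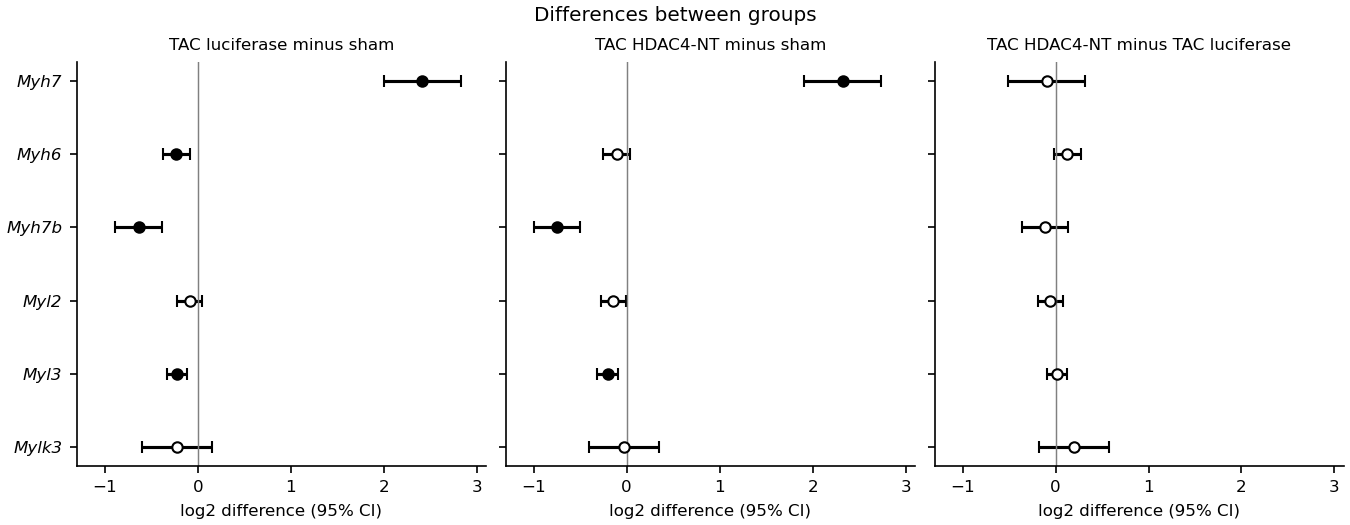
Log2 difference and 95% confidence interval of each gene for TAC luciferase minus sham, TAC HDAC4-NT minus sham and TAC HDAC4-NT minus TAC luciferase. Filled points passed an adjusted p of 0.05 over all genes tested; the interval of Myh7 excludes 0 by a wide margin in both comparisons with sham, and every interval between the TAC groups spans 0.

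In TAC luciferase against sham, 1 of the 6 genes passed the test as higher and 3 as lower, where 26.1% of all genes tested passed in either direction, 11.2% as higher and 14.9% as lower. For 4 of the 6 the groups did not overlap, against 37.4% of all genes. In TAC HDAC4-NT against sham, 1 was higher and 2 were lower, with 22.8% of all genes passing (10.5% as higher and 12.3% as lower), and 3 did not overlap, against 39.7% of all genes. The median log2 difference of the 6 genes was -0.23 in TAC luciferase hearts and -0.12 in TAC HDAC4-NT hearts, where that of all genes tested was -0.01 in each. With 6 genes, nothing particular to the myosins is read from these shares. By p, Myh7 stood at rank 87 of 12597 in TAC luciferase against sham and at rank 92 in TAC HDAC4-NT against sham.

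Whether HDAC4-NT altered any of the 6 genes under pressure load was read from TAC HDAC4-NT against TAC luciferase. None of the 6 passed the test and none had groups apart, where 0.254% of all genes passed and 20.4% had groups apart. 32 of the 12597 genes passed this test in limma (0 to 827 under other settings), and 1807 had an unadjusted p under 0.05. The intervals bound what could have been missed. For Myh7 the log2 difference was -0.09 with an interval of -0.51 to 0.32, which spans 0.703-fold to 1.25-fold, and adjusted p = 0.895. For Myh6 it was 0.13 (interval -0.02 to 0.27, adjusted p = 0.421), and for Myh7b -0.11 (interval -0.36 to 0.14, adjusted p = 0.742).

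The light chains had the narrowest bounds. Myl3 differed by 0.02 between TAC HDAC4-NT and TAC luciferase hearts (interval -0.09 to 0.13, adjusted p = 0.937), and Myl2 by -0.06 (interval -0.19 to 0.08, adjusted p = 0.757). Mylk3 had a wider bound, with a difference of 0.20 (interval -0.18 to 0.57, adjusted p = 0.685). Mhrt differed by 0.21 (adjusted p = 0.517). Mir208a was higher in all TAC HDAC4-NT hearts than in all TAC luciferase hearts, with a difference of 0.11 that did not pass the test (adjusted p = 0.768). Over all genes, 20.4% had groups apart in this comparison. None of the differences above shows that the groups are alike beyond its interval. Myh6 differed from sham with a passed test in TAC luciferase hearts and without one in TAC HDAC4-NT hearts, and the test between the TAC groups themselves did not pass.

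The genes whose values ran closest to those of Myh7 were found by the root mean square difference over the 9 arrays, after each gene was set to its own mean. They were Timp1 (0.24 log2 units), an inhibitor of matrix metalloproteinases, Nppa (0.25), the atrial natriuretic peptide, Mfap4 (0.26) and Itgbl1 (0.26), both extracellular proteins, and Ccn2 (0.29), a matricellular protein. Against sham, Timp1 rose by 2.50 in TAC luciferase hearts and 2.31 in TAC HDAC4-NT hearts on the log2 scale, and Nppa by 2.04 and 2.20 in the same order. Ccn2 departed from Myh7 between the TAC groups, at -0.76 in TAC HDAC4-NT against TAC luciferase hearts, where Myh7 gave -0.09. Timp1 and Mfap4 are mostly products of non-muscle cells. With 6 TAC and 3 sham arrays, any gene that separates them by a similar size scores well. For Myh7b the closest were Unc45b (0.09), a myosin chaperone, Sgca (0.09), a sarcoglycan of the muscle membrane, and Fbp2 (0.11), the muscle fructose bisphosphatase. Sgca fell by 0.71 in TAC luciferase hearts and 0.77 in TAC HDAC4-NT hearts, and Fbp2 by 0.72 and 0.73. The group means of the other members lay within 0.5 log2 units of each other, and no such search was made for them.

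Of the 21 other myosin chains measured, 15 were tested. Against sham, 6 rose and 0 fell in TAC luciferase hearts, and 6 rose and 1, Myh11, fell in TAC HDAC4-NT hearts, with list medians of 0.14 and 0.12. Over all genes, 11.2% rose and 14.9% fell in TAC luciferase hearts, and 10.5% rose and 12.3% fell in TAC HDAC4-NT hearts. Non-muscle chains made up 5 of the 6 that rose, and the other was Myh8, the perinatal heavy chain of skeletal muscle, at 0.17 and 0.20. The first Myh8 call was lost without sham heart 2 or 3 or TAC luciferase heart 2 or 3 (adjusted p up to 0.0850), the second without TAC HDAC4-NT heart 1 or 3 (up to 0.0556), and both when scaled to the cardiomyocyte markers. Myh8 was dim, at 5.81, 5.73 and 5.82 in TAC HDAC4-NT hearts and 5.73, 5.79 and 5.74 in TAC luciferase hearts. Its sham readings were 5.61, 5.58 and 5.57, all below the filter level, so only TAC arrays brought Myh8 past the filter. Whether readings this dim follow Myh8 RNA was not tested. Myh10, a non-muscle heavy chain, rose by 0.71 in TAC luciferase hearts (SE 0.07, adjusted p = 0.00011) and by 0.70 in TAC HDAC4-NT hearts, and Myh9, another, by 0.61 and 0.54. Myl6, the non-muscle and smooth muscle essential light chain, rose by 0.52 and 0.55. The first call was lost without sham heart 2 or 3 or TAC luciferase heart 2 or 3 (adjusted p up to 0.0673), and the second without sham heart 2 or 3 or TAC HDAC4-NT heart 2 (up to 0.0594). Myl12a and Myl12b, non-muscle regulatory light chains, each rose by 0.28 in TAC luciferase hearts and by 0.36 in TAC HDAC4-NT hearts. The fibroblast markers rose in the same hearts (values above), and their part in these changes was not tested. Myh11, the smooth muscle heavy chain, fell by 0.24 in TAC HDAC4-NT hearts (adjusted p = 0.0443) and gave -0.20 in TAC luciferase hearts (adjusted p = 0.0762). Its call in TAC HDAC4-NT hearts held without sham heart 2 or TAC luciferase heart 1 or 2 and was lost without any other array (adjusted p up to 0.158).

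The atrial light chains varied widely within every group. Myl7, the atrial regulatory light chain, read 5.45, 6.56 and 6.91 in TAC HDAC4-NT hearts, 5.48, 5.73 and 8.56 in TAC luciferase hearts, and 6.26, 7.74 and 6.39 in sham hearts. Myl4, the atrial essential light chain, read 7.40, 9.30 and 9.42 in TAC HDAC4-NT hearts, 7.54, 8.23 and 10.48 in TAC luciferase hearts, and 8.38, 9.96 and 8.32 in sham hearts. Both were highest in TAC luciferase heart 3 and overlapped between all groups. The mean of 4 atrial genes (these 2, Sln and Mybphl) was 5.94 to 6.94 in TAC HDAC4-NT hearts, 5.98 to 8.07 in TAC luciferase hearts and 6.43 to 7.49 in sham hearts. With that mean as a covariate, no call of the 6 genes was lost. Of the atrial list, Bmp10 was below the filter and only Dkk3 passed the test, as higher against sham in both TAC groups. Of the 10 skeletal muscle markers, 5 (Myh1, Myh2, Mylpf, Pvalb and Myog) were below the filter.

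Of the partners of the thick filament and the chaperones that fold myosin, 17 of 18 measured were tested. Mybpc2, a form of myosin binding protein C typical of fast skeletal muscle, rose by 0.62 in TAC luciferase hearts and 0.64 in TAC HDAC4-NT hearts. Mybpc3, the cardiac form, rose by 0.28 (adjusted p = 0.0475) and 0.35 (adjusted p = 0.0196), where the first call held only if the array left out was sham heart 3 or TAC luciferase heart 3, and the second was lost without TAC HDAC4-NT heart 1 or 3 (adjusted p up to 0.119 and 0.0728). Unc45b fell by 0.61 and 0.63. Smyd2, a lysine methyltransferase, rose by 0.25 in TAC HDAC4-NT hearts, a call lost without sham heart 1 or 3 or TAC HDAC4-NT heart 1 or 3 (adjusted p up to 0.123), and gave 0.21 in TAC luciferase hearts (adjusted p = 0.0560). Counts were 2 higher and 1 lower in TAC luciferase hearts and 3 higher and 1 lower in TAC HDAC4-NT hearts, with medians of 0.02 and 0.00, against 26.1% and 22.8% of all genes passing in either direction.

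Genes that set the phosphorylation of light chains were 15 measured and 14 tested, with 2 higher and 2 lower in TAC luciferase hearts (median -0.03) and 1 higher and 1 lower in TAC HDAC4-NT hearts (median 0.02), against 26.1% and 22.8% of all genes passing in either direction. Mylk4, a striated muscle relative of Mylk3, fell by 0.66 in TAC luciferase hearts (adjusted p = 0.0248, lost without sham heart 2 or 3) and by 0.90 in TAC HDAC4-NT hearts (adjusted p = 0.00619). Its values were 9.11, 8.68 and 8.98 in TAC HDAC4-NT hearts, 8.73, 9.48 and 9.30 in TAC luciferase hearts, and 9.70, 9.92 and 9.86 in sham hearts. In TAC luciferase hearts Ppp1r14c, an inhibitor of protein phosphatase 1, fell by 0.40, and it gave -0.22 in TAC HDAC4-NT hearts (adjusted p = 0.0832). Dapk3, a kinase, rose there by 0.23, and Ppp1r12a, the targeting subunit of myosin phosphatase, by 0.21, with adjusted p of 0.0445 and 0.0450. With an array left out, Dapk3 kept its call only without TAC HDAC4-NT heart 1 or TAC luciferase heart 3, and Ppp1r12a only without sham heart 2, TAC HDAC4-NT heart 3 or TAC luciferase heart 2. Calm2, which encodes calmodulin, the activator of these kinases, rose by 0.61 in TAC HDAC4-NT hearts, a call lost without sham heart 3 or TAC HDAC4-NT heart 1 or 3 (adjusted p up to 0.0653). It gave 0.44 in TAC luciferase hearts (adjusted p = 0.0602). In TAC HDAC4-NT hearts Dapk3 gave 0.10 and Ppp1r12a 0.13, neither past the threshold. Mylk, the smooth muscle kinase, gave -0.15 in TAC luciferase hearts and -0.14 in TAC HDAC4-NT hearts, neither past the threshold.

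Known regulators of Myh6 and Myh7 were a list of 35 measured genes, of which 33 were tested. Against sham, 2 rose and 11 fell in TAC luciferase hearts, where 11.2% of all genes rose and 14.9% fell. In TAC HDAC4-NT hearts 3 rose and 10 fell, where 10.5% of all genes rose and 12.3% fell. The list medians were -0.02 and -0.09. Thrb, the beta thyroid receptor, read 5.84, 5.88 and 5.98 in TAC HDAC4-NT hearts, 5.81, 5.80 and 5.89 in TAC luciferase hearts, and 6.46, 6.12 and 6.20 in sham hearts. It fell by 0.43 in TAC luciferase hearts (adjusted p = 0.00601) and by 0.36 in TAC HDAC4-NT hearts (adjusted p = 0.0147), and no TAC heart overlapped with a sham heart. The second call was lost without TAC HDAC4-NT heart 1 (adjusted p = 0.0597). Thra, the alpha receptor, fell by 0.47 in TAC luciferase hearts (adjusted p = 0.0112), and gave -0.32 in TAC HDAC4-NT hearts (adjusted p = 0.0569). The second difference passed in 6 of 11 other settings, among them a limma fit of TAC HDAC4-NT and sham alone (adjusted p = 0.0108). With 1 array left out, it passed only without TAC luciferase heart 1 (0.0212) or heart 2 (0.0144).

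Rxrg, the gamma retinoid X receptor, read 8.50, 8.73 and 8.58 in TAC HDAC4-NT hearts, 8.40, 8.54 and 8.47 in TAC luciferase hearts, and 9.47, 9.37 and 9.15 in sham hearts. It fell by 0.86 in TAC luciferase hearts and 0.72 in TAC HDAC4-NT hearts. The related Rxra (-0.62 and -0.36 in the same order) and Rxrb (-0.22 and -0.31) also fell, and these 2 were added after their values were seen. Slc16a10, a transporter of thyroid hormone, fell by 0.68 in TAC luciferase hearts and 0.57 in TAC HDAC4-NT hearts. Dio2, the deiodinase that activates thyroid hormone, was higher in both TAC groups. In sham hearts 1 and 2 Dio2 read below the filter level, so Dio2 passed the filter through the TAC arrays. Whether sham readings this dim follow Dio2 RNA was not tested. It read 7.35, 6.78 and 7.54 in TAC HDAC4-NT hearts, 7.20, 7.26 and 6.97 in TAC luciferase hearts, and 5.54, 5.60 and 5.75 in sham hearts, a rise of 1.51 in TAC luciferase hearts (adjusted p = 0.000323) and 1.59 in TAC HDAC4-NT hearts (adjusted p = 0.000269).

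Other regulators were mixed. Tbx5, a cardiac T-box factor, fell by 0.95 in TAC luciferase hearts and 0.54 in TAC HDAC4-NT hearts. Egr1, an immediate early factor, rose by 1.54 in TAC luciferase hearts (adjusted p = 0.0146, 0.111 without TAC luciferase hearts 2 and 3) and gave -0.05 in TAC HDAC4-NT hearts (adjusted p = 0.944), a value with no stable sign. Tead1, a factor that binds the MCAT motif, gave 0.05 and 0.06, neither past the threshold. No gene of this list passed the test between TAC HDAC4-NT and TAC luciferase hearts, Egr1 included, and the same was true of the other lists.

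Of the 15 thin filament and troponin genes, all tested, 3 rose and 1 fell in TAC luciferase hearts (median 0.01) and 2 rose and 0 fell in TAC HDAC4-NT hearts (median 0.10), against 26.1% and 22.8% of all genes passing in either direction. Acta1, the skeletal alpha actin that is also a fetal heart gene, read 12.93, 13.08 and 12.96 in TAC HDAC4-NT hearts, 12.56, 12.96 and 13.08 in TAC luciferase hearts, and 10.79, 11.52 and 11.73 in sham hearts. It rose by 1.52 in TAC luciferase hearts (adjusted p = 0.0011) and by 1.65 in TAC HDAC4-NT hearts (adjusted p = 0.000806). Tpm2, beta tropomyosin, rose by 1.05 and 0.50 in the same order. Neb, nebulin, rose by 0.50 in TAC luciferase hearts and gave 0.15 in TAC HDAC4-NT hearts (adjusted p = 0.286). In TAC luciferase hearts Lmod3, a leiomodin that nucleates actin, fell by 0.53, a call lost without sham heart 1 or 2 or TAC luciferase heart 1 (adjusted p up to 0.0796). It gave 0.10 in TAC HDAC4-NT hearts (adjusted p = 0.699).

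**Figure D5:**
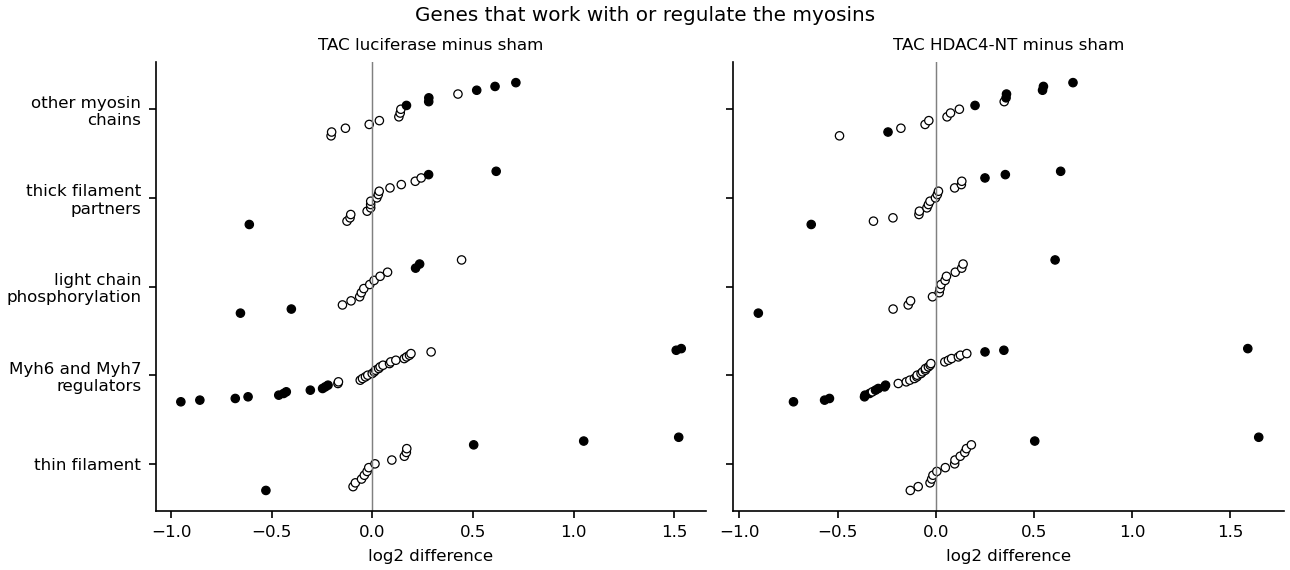
Log2 differences from sham of every tested gene in 5 lists of genes that work with or regulate the myosins, TAC luciferase on the left and TAC HDAC4-NT on the right. Filled points passed an adjusted p of 0.05; the points above 1 are Egr1, Dio2, Acta1 and Tpm2 in TAC luciferase hearts and Dio2 and Acta1 in TAC HDAC4-NT hearts.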

How the data were processed

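Per the labels' protocols, total RNA was taken from whole hearts with Trizol, turned into biotin-labelled cRNA and read on Affymetrix arrays. The values are on the log2 scale as deposited by the authors, who used RMA, per the submitters' processing notes. For its version, the genome build and the probe set definitions, nothing is given in the sources used here. Sorted values were identical on all 9 arrays. Arrays give no read depth, and precision is limited by their number. The labels give 3 animals per group.

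Of 21225 probe sets, 20239 had a gene symbol in the platform annotation and 986 are unnamed here. Testing needed at least 3 arrays above the 40th percentile of all values: 12597 genes passed and 7642 did not. A linear model over all 9 arrays was fitted in R 4.3.3 by the lmFit, contrasts.fit and eBayes functions of limma 3.58.1 (degrees of freedom 6 residual, 3.23 prior), with p-values adjusted by Benjamini-Hochberg over all genes tested and a threshold of 0.05. Myh7 minus Myh6 was compared by exact two-sided permutation, adjusted over 4 comparisons. Likeness to a member was searched among tested genes for members whose group means spanned over 0.5 log2 units, leaving out predicted genes (5 for Myh7, 3 for Myh7b). Sequences are RefSeq's on GRCm38.p6, with all 6 promoters and all 3 microRNAs matched.

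The members, the 6 lists of related genes and the 8 lists of cell markers were chosen with earlier results of these data known. Named list genes were the up to 4 largest changes past the threshold in each list and comparison. Mylk, Myl4, Myl7, Mybpc3, Thra, Thrb, Tead1, Mir208a and Mir499 were named whatever their values. Myh11, Myh8, Bmp10, Dkk3, the skeletal markers below the filter, Rxra, Rxrb, Slc16a10 in TAC luciferase hearts and Mhrt were named after their values were seen. Not described above were the marker lists of ventricle (2 of 4 genes lower in each TAC group against sham, Hey2 and Myl3), macrophages (3 of 8 higher in TAC luciferase hearts and 5 of 8 in TAC HDAC4-NT hearts), endothelium (1 of 8 higher and 2 lower in TAC luciferase hearts, 1 higher and 0 lower in TAC HDAC4-NT hearts) and smooth muscle and pericytes (of 9 tested, 1 higher and 1 lower in TAC luciferase hearts, 2 higher and 2 lower in TAC HDAC4-NT hearts). Of 16 cardiomyocyte markers, 3 rose and 2 fell in each TAC group, and of 5 skeletal muscle markers tested, 0 changed. Over all genes tested, 11.2% rose and 14.9% fell in TAC luciferase hearts, and 10.5% rose and 12.3% fell in TAC HDAC4-NT hearts. With lists this small, nothing is read from these counts.

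Alternatives were a fit without the filter or with a filter at the 60th percentile, a robust prior with a trend, cyclic loess, values scaled to the mean of the cardiomyocyte markers, array weights, a fit of the 2 compared groups alone, a block for the replicate number, a random block for the sample code number, a covariate for the atrial mean, the loss of TAC luciferase hearts 2 and 3 together or of any single array, and Myh7 minus Myh6 as a limma row. Running these for genes other than the 6 was added after seeing the data. For the random block, the correlation estimated within a code number was -0.11. As the code number differs between the groups, that setting cannot adjust for what the number marks. The scripts were tested on simulated data. Matplotlib 3.10.9 (Python 3.11.15) drew the figures.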

Additional observations from a re-analysis of the deposited data

How the results depend on the processing

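The 3 hearts per group limit every interval, and Myh6, Myl2 and Myl3 had little room to rise. A difference held if it kept its direction and its side of the threshold, and a count of genes changed if it stayed within 1.5-fold. Of 464 values of the main results under other settings, 419 held. Of 1631 for the other named genes 1490 did, 112 lost their call, 23 gained it and 6 reversed: Tead1 in TAC luciferase against sham was -0.090 without TAC luciferase hearts 2 and 3, and in TAC HDAC4-NT against sham Egr1 was 0.051 with the atrial covariate and -0.47 to 0.16 with each array left out, and Lmod3 -0.050 to 0.21. The calls of Myh7 and Myh7b against sham held under all of them. The causes of the changes below were not tested, apart from the fewer arrays of the settings that leave some out.

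Genes changed numbered 1926 in TAC luciferase against sham without TAC luciferase hearts 2 and 3, and 2435 to 3230 with each array left out. Between TAC HDAC4-NT and TAC luciferase, limma called 10 with no filter, 103 at the 60th percentile filter, 75 with the trended and robust prior, 827 with array weights, 0 with only those groups' arrays (1868 at an unadjusted p under 0.05), 106 with the replicate number as a block, 177 with the code number as a random block, 7 with the atrial covariate, 10 without TAC luciferase hearts 2 and 3, and 1 to 697 with each array left out.

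The labels name no pairing of hearts by replicate number. Of 9 same-number pairs, the correlation of deviations was over 0.1 in 2 (-0.12 to 0.20), and 3 hearts correlated best with their own number. Deviations from a mean of 3 hearts are tied to each other, so this check cannot exclude pairing. In TAC luciferase against sham, Myh6 lost its call with cyclic loess (-0.16), with only those groups' arrays (-0.23), with the replicate block (-0.23) and without TAC luciferase hearts 2 and 3 (-0.15), and was -0.27 to -0.18 with each array left out. Myl3 lost it without those 2 hearts (-0.17). Myl3 in TAC HDAC4-NT against sham was -0.23 to -0.18 with each array left out, and lost its call in 2 of these. The replicate block changed no other call of the 6 genes.

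Differences that failed the test also turned sign. Between TAC HDAC4-NT and TAC luciferase, with each array left out, Myh7 ran from -0.24 to 0.11, Myl3 from -0.0031 to 0.043 and Myh7 minus Myh6 from -0.36 to 0.0057. Without TAC luciferase hearts 2 and 3, Myh7b was 0.011 and Myl3 -0.036, and Myl3 was -0.00016 when scaled to cardiomyocyte markers. Mylk3 in TAC HDAC4-NT against sham was 0.022 with array weights and -0.13 to 0.13 with each array left out. As a limma row, Myh7 minus Myh6 passed the threshold, at 2.65 (adjusted p = 5.08e-05) in TAC luciferase hearts and 2.43 (8.43e-05) in TAC HDAC4-NT hearts, and with the atrial covariate at 2.64 and 2.40.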
